A study of Mus musculus with 39 samples.

Results

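Genes for the proteasome and its direct helpers were examined in single liver cells of the Krt19 lineage. They were taken as all symbols of the deposited table that begin with Psm, followed by a letter from a to g and a digit. The pattern found 45 of the table's 10061 gene symbols, carried by 48 transcript rows. The pattern reads gene names and no measured value. Psma8, Psmf1, Psmg3 and Psmg4 were not analysed here.

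The 45 genes comprised 7 of the 20S alpha ring (Psma1 to Psma7), 7 of the constitutive 20S beta ring (Psmb1 to Psmb7) and 4 of the immunoproteasome and thymoproteasome (Psmb8 to Psmb11). The 19S regulatory particle had 6 ATPases (Psmc1 to Psmc6), 11 non-ATPase subunits and 3 assembly chaperones (Psmd5, Psmd9 and Psmd10). The remaining genes were 4 activators (Psme1 to Psme4), 2 chaperones of 20S assembly (Psmg1 and Psmg2) and Psme2b, an intronless copy of Psme2.

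The 39 cells came from livers of adult Krt19CreERT/Rosa26CAG-EGFP mice and form 1 group in the labels. Krt19, a keratin of bile duct epithelium, drives a tamoxifen-inducible Cre that switches on a GFP reporter, so a green cell is one in which that Cre had acted or a descendant of such a cell. GFP-positive cells were sorted and then picked individually. Only cells that this driver marks could be seen, and the labels name no animal, sort, plate or sequencing run. Cells are therefore no replicates of a condition, and no test, p-value or standard error is given. Each comparison describes these 39 libraries in which cell type, animal and handling cannot be told apart.

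The proteasome is the main machine that breaks down ubiquitin-tagged proteins. Its 20S core is a barrel of alpha and beta rings in which Psmb5, Psmb6 and Psmb7 encode the cutting subunits, and the 19S particle binds, unfolds and feeds in the substrate. Interferons induce Psmb8, Psmb9 and Psmb10, which take the places of Psmb5, Psmb6 and Psmb7, and also the activator genes Psme1 and Psme2, and the resulting immunoproteasome makes many of the peptides that class I molecules display.

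The 250 bases before the transcription start are shown for 5 genes whose levels are set beside each other further on: the immunoproteasome genes Psmb8 and Psmb9, the activator Psme2, and the constitutive cutting subunits Psmb5 and Psmb6. They were read from RefSeq on GRCm38.p6, which is not the build named in the submitters' processing notes. Psmb8 was at chr17:34197945-34198194 on the plus strand and Psmb9 at chr17:34187331-34187580 on the minus strand. Psme2 was at chr14:55591102-55591351 on the minus strand, Psmb5 at chr14:54617996-54618245 on the minus strand and Psmb6 at chr11:70525107-70525356 on the plus strand. Capitals mark a match, on either strand, to 1 of 3 patterns: a pair of GAAA runs 2 bases apart (an interferon response core), TGACNNNGC (the core of the antioxidant response element, a form of which the proteasome regulator Nfe2l1 binds) and CCAAT (the box of NF-Y).
Psmb8: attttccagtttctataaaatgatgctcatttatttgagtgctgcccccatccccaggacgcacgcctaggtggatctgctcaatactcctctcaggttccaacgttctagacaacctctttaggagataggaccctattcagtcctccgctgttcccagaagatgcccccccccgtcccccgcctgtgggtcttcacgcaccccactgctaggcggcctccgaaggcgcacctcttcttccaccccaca
Psme2: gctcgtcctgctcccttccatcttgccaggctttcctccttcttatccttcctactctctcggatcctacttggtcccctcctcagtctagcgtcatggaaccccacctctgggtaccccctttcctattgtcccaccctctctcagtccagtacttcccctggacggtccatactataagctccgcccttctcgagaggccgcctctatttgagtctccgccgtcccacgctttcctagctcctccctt
Psmb9: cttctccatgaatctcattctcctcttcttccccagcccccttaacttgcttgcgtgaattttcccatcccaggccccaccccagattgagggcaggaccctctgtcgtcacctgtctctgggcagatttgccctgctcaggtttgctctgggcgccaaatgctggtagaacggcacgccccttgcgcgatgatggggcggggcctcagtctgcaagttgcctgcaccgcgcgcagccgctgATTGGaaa
Psmb5: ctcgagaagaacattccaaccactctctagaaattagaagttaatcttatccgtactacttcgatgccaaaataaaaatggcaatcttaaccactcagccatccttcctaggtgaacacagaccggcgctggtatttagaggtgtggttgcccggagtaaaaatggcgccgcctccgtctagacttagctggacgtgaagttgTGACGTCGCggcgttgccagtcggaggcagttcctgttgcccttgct
Psmb6: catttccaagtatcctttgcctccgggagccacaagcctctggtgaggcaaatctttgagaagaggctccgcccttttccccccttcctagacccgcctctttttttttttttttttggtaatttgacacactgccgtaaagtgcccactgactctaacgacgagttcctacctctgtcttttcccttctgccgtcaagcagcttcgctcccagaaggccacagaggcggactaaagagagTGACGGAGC
Psmb5 held TGACNNNGC from base 47 to base 39 before its start and Psmb6 from base 9 to base 1 before its start, while Psmb9 held CCAAT on the opposite strand from base 8 to base 4. Psmb8 and Psme2 held none of the 3 in these windows. Entries were found for 38 of the 45 genes, with 41 windows. TGACNNNGC stood in 5 of the 41 windows (12.2%, against 10.2% of all 32851 windows), the paired GAAA in 3 (7.32% against 2.98%) and CCAAT in 14 (34.1% against 33.8%). No printed window held more than 1 match. A match is a description of letters and not a bound site, and no match says nothing about a factor.

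Levels are given as CPM, the deposited log2 values turned back to a linear scale, and a gene was called detected at 1 CPM or above. The spacing of low values put 1 CPM at 3.67 to 41.5 reads in 37 cells, with a median of 12.0, and the depth of cells 38 and 39 is unknown. Clustering on 91 cell type marker genes, none of them a proteasome gene, gave 4 groups. They were 6 hepatocyte-like cells (1 to 4, 38 and 39), 22 cholangiocyte-like cells, 7 unnamed cells with mesothelial and fibroblast markers (5 to 8, 10, 35 and 37) and 4 unnamed cells with blood cell markers (29, 32, 33 and 36). In 11 of the 22 cholangiocyte-like cells at least 3 hepatocyte markers also reached 100 CPM. At least 3 cholangiocyte markers did so in 4 of the 7 mesothelial and fibroblast cells. In those 7 cells at least 3 mesothelial markers reached 100 CPM in 7 and at least 3 fibroblast and stellate markers in 5. The hepatocyte-like cells had the lowest median depth, 4.42 reads per CPM in the 4 cells where it could be read (3.67 to 10.9), against 10.4, 17.1 and 14.4 in the cholangiocyte-like, mesothelial and fibroblast, and blood cell groups. They stood apart in the ribosomal RNA transcript Rn45s, which took 0.383% to 1.22% of their summed level against 8.42% to 31.2% in the other 33 cells.

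Proteasome genes were found in more cells than most genes. Of the 45, 16 were detected in at least 20 cells (35.6%), where 16.3% of all 10061 genes were, and 18 reached 100 CPM in at least 10 cells (40%), where 8.85% of all genes did. The median proteasome gene was detected in 16 cells and the median gene of the table in 9. Even so, none of the 45 was detected in all 39 cells. Psma3, an alpha ring subunit, came nearest with 33 cells, and Psmd5, a chaperone of 19S assembly, was at the other end with 2.

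The number of proteasome genes in a cell varied widely. It ran from 2 of 45 in cell 14 to 39 of 45 in cell 38, with a median of 19. The 4 cells with blood cell markers held 25, 27, 35 and 37 of them, and the hepatocyte-like cells 21 to 39 (median 29). The 7 cells with mesothelial and fibroblast markers held 9 to 38 (median 22) and the cholangiocyte-like cells 2 to 27 (median 12). The ranges of all 4 groups overlapped. In the hepatocyte-like cells a median of 64.4% of the proteasome genes was detected against 30.1% of all genes, and in the blood cell group 68.9% against 34.1%. In the cholangiocyte-like cells these shares lay close together, at 26.7% and 27.4%, and 13 of the 22 cells held a larger share of proteasome genes than of all genes. At 100 CPM the cholangiocyte-like shares were 13.3% of proteasome genes against 8.82% of all genes, with the proteasome share larger in 20 of 22 cells. Across the 39 cells the number of proteasome genes detected followed the number of all genes detected (Spearman rho 0.76), and over the 37 cells of known depth its rho with reads per CPM was 0.38. Both numbers of each point come from 1 library and share its depth.

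**Figure D1:**
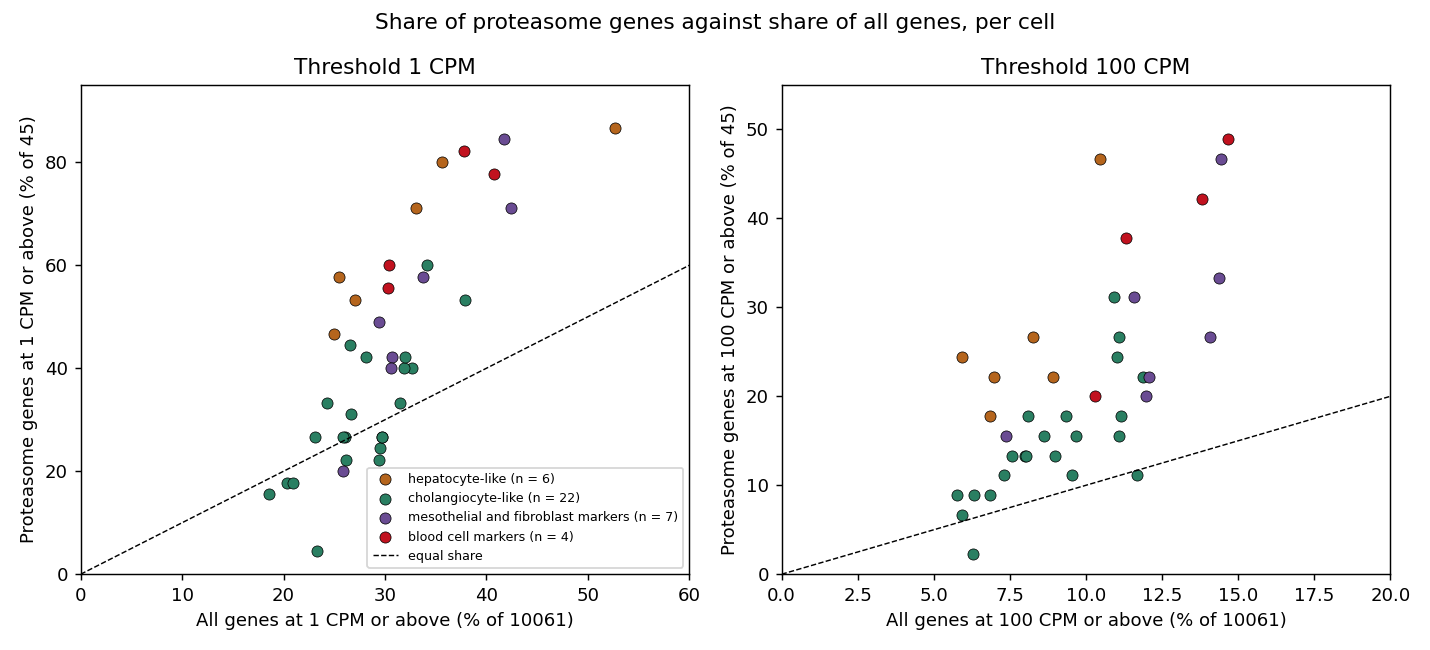
Share of the 45 proteasome genes (vertical axis, percent) against the share of all 10061 genes (horizontal axis, percent) at 1 CPM (left) and 100 CPM (right), 1 point per cell, coloured by marker group; the dashed line marks equal shares. At 1 CPM 29 of 39 cells lie above the line and at 100 CPM 37 of 39, and the lowest point in both panels is a cholangiocyte-like cell.

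The summed proteasome level did not order the groups as the number of genes did. It had a median of 5804 CPM over all cells. The extremes, 672 CPM in cell 14 and 16853 CPM in cell 25, were both cholangiocyte-like. Group medians were 3163 CPM in hepatocyte-like, 5525 CPM in cholangiocyte-like, 8375 CPM in mesothelial and fibroblast and 8455 CPM in blood cell marker cells. The cells' own totals over all genes were unequal, from 351255 to 3128330 CPM. Medians of the total were 700226, 1182110, 1044240 and 932267 CPM in the same order of groups. Over the 39 cells the summed proteasome level followed this total (Spearman rho 0.65). As a share of the cell's own total the group medians were 0.489%, 0.503%, 0.722% and 1.01%.

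In cholangiocyte-like cells a few genes carried this sum. The 3 highest proteasome genes of a cell made up a median of 77.9% of its proteasome level there (range 34.7% to 99.6%), against 35.7% in hepatocyte-like cells (27.0% to 48.9%), 51.1% in the mesothelial and fibroblast group (34.4% to 84.0%) and 36.5% in the blood cell group (21.5% to 63.5%). This share is tied to the number of proteasome genes detected, which was 2 in cell 14. That number had a median of 12 in cholangiocyte-like and 29 in hepatocyte-like cells. A like share over all genes was not computed. The highest gene differed from cell to cell. In cell 15 Psme1 alone, at 8411 CPM, made up 88.3% of the sum, in cell 14 Psma3 made up 86.5% and in cell 16 the ATPase gene Psmc4 made up 70.8%. Over the 39 cells 23 different genes were the highest somewhere, and Psme2 was the highest in 4 cells, more than any other gene.

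**Figure D2:**
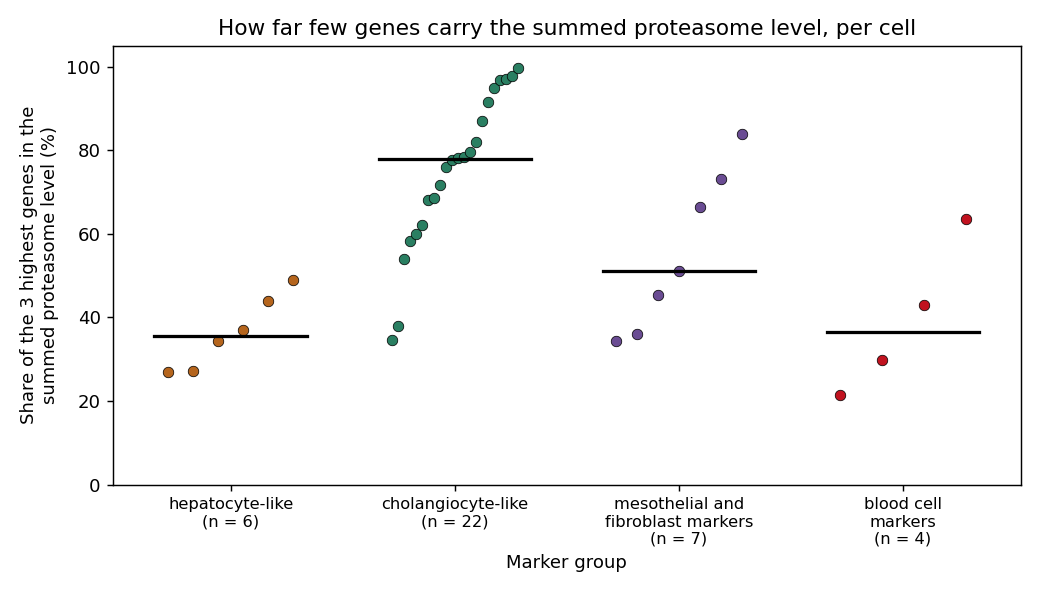
Share of the 3 highest proteasome genes in a cell's summed proteasome level (vertical axis, percent), 1 point per cell in each of the 4 marker groups; bars are medians. The cholangiocyte-like cells reach 99.6% and have a median of 77.9%, while all 6 hepatocyte-like cells lie at or below 48.9%.

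**Figure D3:**
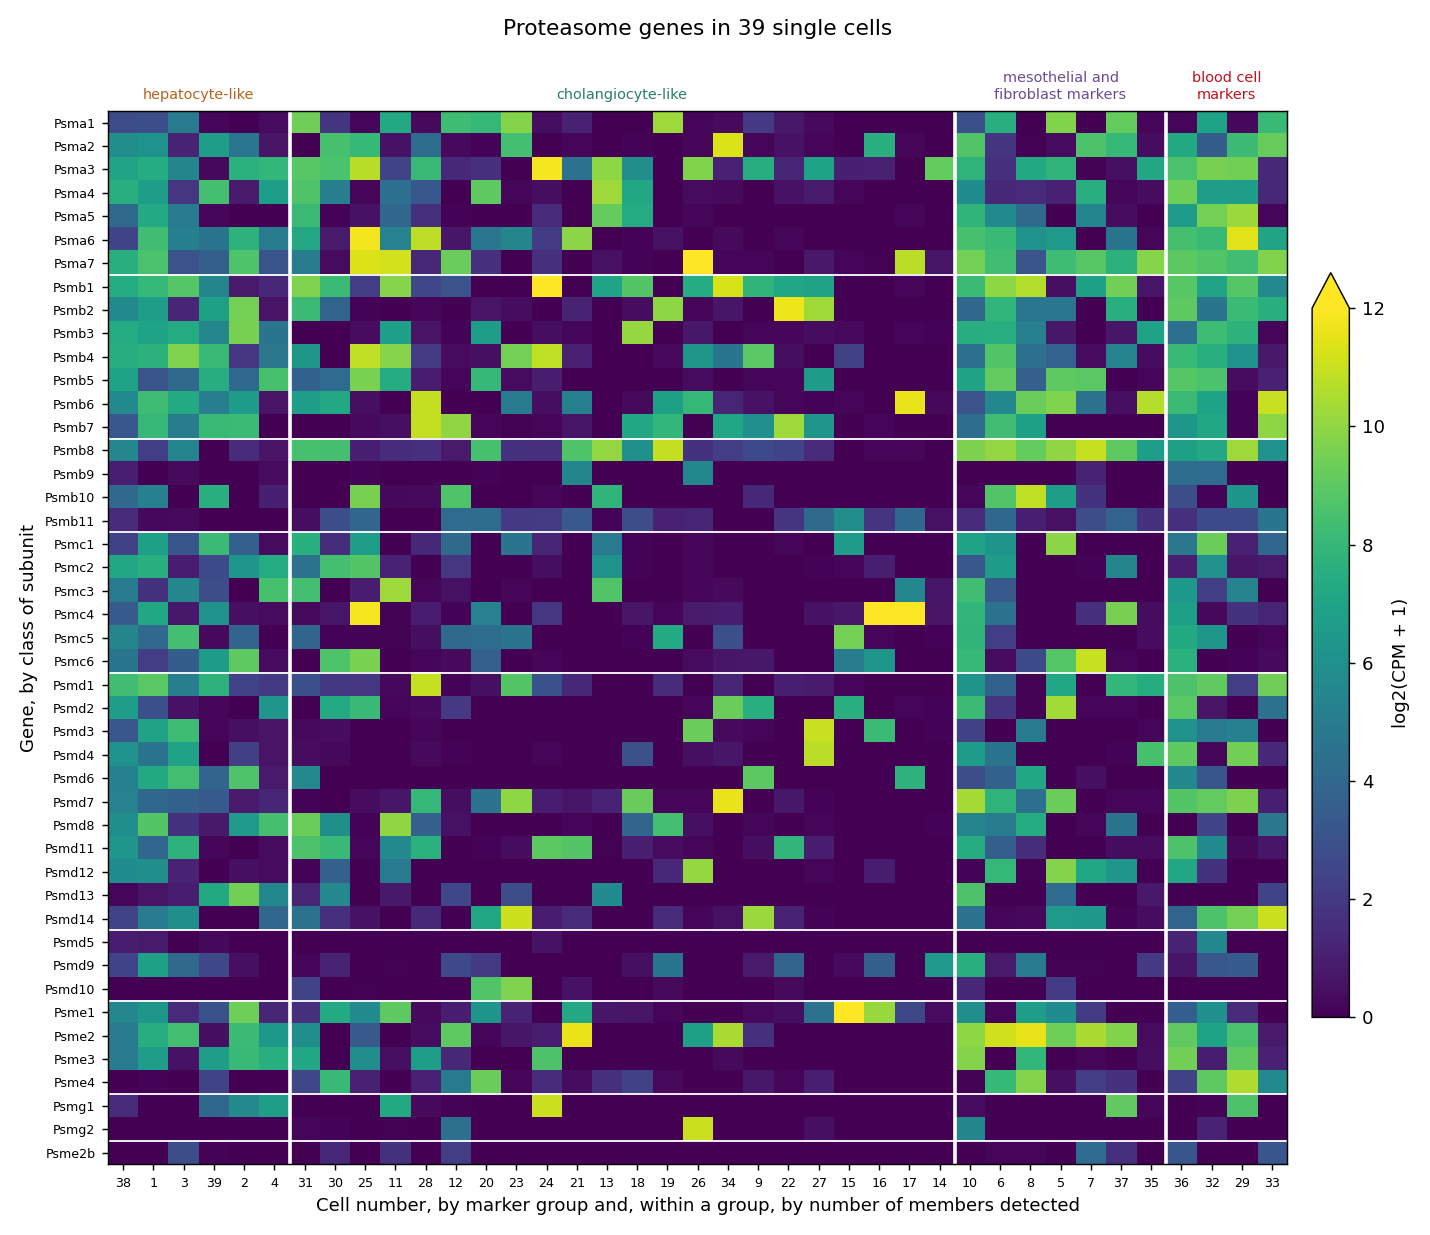
Level of each of the 45 proteasome genes (rows, by class of subunit) in each of the 39 cells (columns, by marker group), coloured by log2(CPM + 1); values above 12 share the top colour. Rows are broken by cells at or near 0 in every class, most of all among the cholangiocyte-like cells, where detected genes often stand at high levels next to undetected ones.

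Alpha ring genes, which form the outer rings and the gate of the core, were detected in 16 to 33 cells. Psma3 reached 100 CPM in 21 of its 33 cells, at most 3609 CPM (cell 24). Psma5 was detected in the fewest cells of the class, 16, and was listed at 0 in 11 of 22 cholangiocyte-like cells. Psma7 had the highest mean level per kilobase of transcript among all 45 genes, 523 CPM per kb. By median per kilobase Psmb1 led, at 72.4 CPM per kb, and Psma7 stood at 12.5 CPM per kb. The values of Psma7 were 315, 421, 844 and 504 CPM in the blood cell marker cells 29, 32, 33 and 36. In the 7 mesothelial and fibroblast cells it ran from 8.04 through a median of 321 to 910 CPM, and in the 6 hepatocyte-like cells from 7.52 through 97.3 to 413 CPM. It was detected in 9 of 22 cholangiocyte-like cells, with a median of 0.533 CPM and a maximum of 5190 CPM in cell 26. Psma7 was thus above 100 CPM in every blood cell marker cell and in 6 of 7 mesothelial and fibroblast cells, yet its single highest values were in cholangiocyte-like cells, so the groups overlapped.

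Among the constitutive beta ring genes Psmb1 was detected in the most cells, 28, and Psmb3, a structural subunit, in the fewest, 16. Psmb3 was detected in all 6 hepatocyte-like cells, at 23.2 to 748 CPM with a median of 146 CPM. It was detected in 3 of 22 cholangiocyte-like cells, at 1080, 109 and 104 CPM in cells 18, 11 and 20. Across the class 90.5% of gene and cell combinations were detected in the hepatocyte-like group and 82.1% in the blood cell group, against 67.3% in the mesothelial and fibroblast group and 37.0% in the cholangiocyte-like group.

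The 3 constitutive cutting subunits ranked 3 (Psmb6), 11 (Psmb7) and 13 (Psmb5) of the 45 genes by mean level per kilobase, and each was under 1 CPM in 16 to 20 cells. Their medians were 36.0, 0.572 and 1.26 CPM per kb in the same order. Psmb5, the chymotrypsin-like subunit, was detected in 20 cells, 12 of them at 100 CPM or more. Its range was 7.64 to 358 CPM (median 70.4) in hepatocyte-like cells, 0 to 559 CPM (median 118) in the mesothelial and fibroblast group and 0 to 779 CPM (median 0.159) in cholangiocyte-like cells. In the blood cell group it stood at 0.281, 383, 1.13 and 449 CPM in cells 29, 32, 33 and 36. Psmb5 was thus detected in every hepatocyte-like cell and in 6 of 22 cholangiocyte-like cells.

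Psmb6, the caspase-like subunit, was detected in 23 cells, with group medians of 73.4 CPM in hepatocyte-like, 0.374 CPM in cholangiocyte-like, 47.4 CPM in mesothelial and fibroblast and 207 CPM in blood cell marker cells, and a maximum of 3140 CPM in cell 17. Psmb7, the trypsin-like subunit, was detected in 19 cells, with medians of 145, 0.207, 0 and 110 CPM in the same order and a maximum of 1878 CPM in cell 28. It was listed at 0 in 4 of the 7 mesothelial and fibroblast cells. The Psmb5 and Psmb7 spans overlap the annotated genes Mir686 and Gm13586 on GRCm38, and whether counting used strand is not given in the sources used here.

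Psmb8, the immunoproteasome counterpart of Psmb5, had the clearest group pattern of the cutting subunits. It was detected in 32 of 39 cells (82.1%), a share that depends on which cells were picked, and it reached 100 CPM in 16. By group it was detected in 4 of 6 hepatocyte-like, 17 of 22 cholangiocyte-like, 7 of 7 mesothelial and fibroblast and 4 of 4 blood cell marker cells. In the mesothelial and fibroblast group it stood at 1045 CPM in cell 5, 1068 CPM in cell 6, 1961 CPM in cell 7, 572 CPM in cell 8, 798 CPM in cell 10, 104 CPM in cell 35 and 518 CPM in cell 37. All 7 of these cells were therefore above 100 CPM. The hepatocyte-like cells ran from 0 through a median of 2.69 to 45.9 CPM, so none of the 6 reached that level. Psmb8 was the 1 proteasome gene of 44 (2.27%) whose values in these groups did not overlap, a smaller share than the 6.08% of all genes tested. No other pair of groups was compared in this way. The blood cell marker cells 29, 32, 33 and 36 stood at 1204, 151, 68.1 and 114 CPM.

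In cholangiocyte-like cells Psmb8 was split. It was at 1880, 1045, 410, 365, 358 and 346 CPM in cells 19, 13, 21, 20, 31 and 30 and at 63.4 CPM in cell 18. The other 15 cells of the group were at 5.52 CPM or below, and 2 of them were listed at 0. The 6 high cholangiocyte-like cells lay within the range of the mesothelial and fibroblast group.

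Psmb9 and Psmb10 were detected in fewer cells than Psmb8. Psmb9, the counterpart of Psmb6, was detected in 6 cells and did not reach 100 CPM in any, with 48.0 CPM in cell 26, 43.8 CPM in cell 21, 18.3 CPM in cell 36, 17.0 CPM in cell 32, 1.28 CPM in cell 7 and 1.01 CPM in cell 38. Psmb8 was detected in all 6 of those cells. Psmb10, the counterpart of Psmb7, was detected in 14 cells, 7 of them at 100 CPM or more. These were cells 8, 6 and 5 of the mesothelial and fibroblast group at 1831, 423 and 106 CPM, the cholangiocyte-like cells 25, 12 and 13 at 751, 412 and 226 CPM, and the hepatocyte-like cell 39 at 192 CPM. At 100 CPM Psmb8 and Psmb10 were both present in 4 cells, where the product of their shares gives 2.87. Psmb11, the beta subunit known from thymic epithelium, was detected in 26 cells but never reached 100 CPM, at most 59.4 CPM (cell 15), with a mean of 1.55 CPM per kb, the third lowest of the 45.

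The 3 immunoproteasome genes were summed in each cell and set against the sum of their 3 constitutive counterparts, as a difference of log2(CPM + 1). The median difference was -3.05 in hepatocyte-like cells (range -7.21 to -1.33), and the constitutive sum was the larger in all 6. It was 1.65 in the mesothelial and fibroblast group (-3.95 to 8.53), where the immunoproteasome sum was the larger in 5 of 7 cells. In the blood cell group it was -2.25 (-5.46 to 9.76), with the immunoproteasome sum larger in 1 of 4 cells. In cholangiocyte-like cells it was -0.69 and spanned -11.42 to 10.31, with the immunoproteasome sum larger in 7 of 22 (median -1.23 with a pseudocount of 0.1). Both sums were under 1 CPM in cells 14, 15 and 16, and cell 24 was among the 7 at 2.23 against 1.38 CPM. Per kilobase of transcript the medians were -3.76, 0.94, -3.06 and -1.05 in the same order, and the immunoproteasome sum was the larger in 5 of 7 mesothelial and fibroblast and 5 of 22 cholangiocyte-like cells. In that group Psmb9 was at or under 1.28 CPM in the 7 cells, and Psmb10 was the larger part of the sum in cell 8, at 1831 CPM against 572 CPM for Psmb8.

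**Figure D4:**
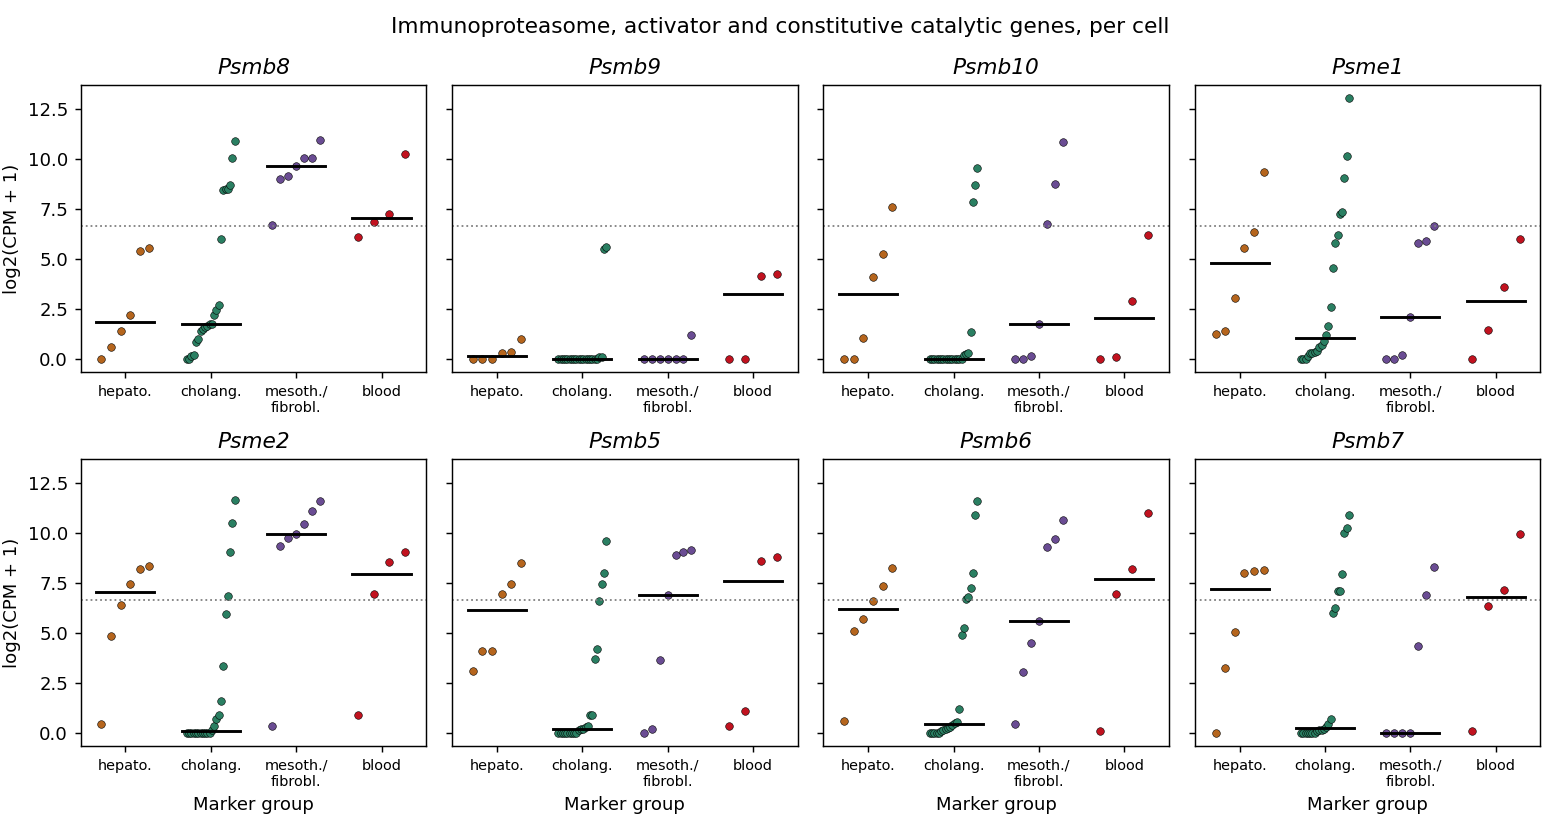
Levels of 8 genes as log2(CPM + 1) (vertical axis) in each cell of the 4 marker groups (horizontal axis); bars are medians and the dotted line is 100 CPM. Psmb8 and Psme2 are high in the mesothelial and fibroblast group, while Psmb9 stays under the line in all 39 cells and Psmb5, Psmb6 and Psmb7 are spread over all groups.

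Among the activators, which open the core from its ends, Psme2 followed Psmb8 most closely of those compared with it. Psme2 and Psme1 encode the subunits of the interferon-inducible activator. Psme2 was detected in 21 cells, reached 100 CPM in 16 and had the second highest mean per kilobase, 522 CPM per kb (median 11.3). In the mesothelial and fibroblast group it stood at 3131 CPM in cell 8, 2218 CPM in cell 6, 1405 CPM in cell 7, 982 CPM in cell 10, 843 CPM in cell 37, 651 CPM in cell 5 and 0.284 CPM in cell 35. So 6 of 7 cells were above 100 CPM and 1 was near 0. The hepatocyte-like cells ran from 0.364 through a median of 129 to 328 CPM, and the blood cell marker cells 29, 32, 33 and 36 stood at 374, 124, 0.852 and 528 CPM. Of the cholangiocyte-like cells 4 of 22 reached 100 CPM, at 3179, 1418, 520 and 114 CPM in cells 21, 34, 12 and 26, and the median was 0.0809 CPM.

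Psmb8 and Psme2 each reached 100 CPM in 16 cells and did so together in 10, where the product of their shares gives 6.56 cells. Their Spearman rho over the 39 cells was 0.45. Cells 5, 6, 7, 8, 10 and 37 of the mesothelial and fibroblast group had both at 100 CPM. So did the blood cell marker cells 29, 32 and 36. In the cholangiocyte-like group Psmb8 reached that level in 6 of 22 cells and Psme2 in 4 of 22, and only cell 21 had both. Psme1 did not pair with Psme2 in this way. Psme1 was detected in 24 cells, 7 of them at 100 CPM or more, of which 3 also had Psme2 at that level, and the rho of Psme1 with Psme2 was -0.04. Its highest values, 8411 and 1118 CPM, were in the cholangiocyte-like cells 15 and 16, and its mesothelial and fibroblast values ran from 0 through 3.27 to 101 CPM. Psme2b, whose transcript was 99.4% identical to that of Psme2 over 794 aligned bases, had a highest value of 17.1 CPM. How reads were split between Psme2 and Psme2b is uncertain.

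Psme3 and Psme4 encode separate activators found mainly in the nucleus. Psme3 was detected in 15 cells, among them 5 of 6 hepatocyte-like cells (0.486 to 281 CPM, median 103) and 5 of 22 cholangiocyte-like cells. In the blood cell marker cells 29, 32, 33 and 36 it stood at 521, 0.903, 1.13 and 704 CPM. Psme4 was at 1506, 519, 50.0 and 4.13 CPM in the blood cell marker cells 29, 32, 33 and 36, and in hepatocyte-like cells it was listed at 0 in 4 of 6 and had a highest value of 4.56 CPM. The spans of Psme1 and Psme4 overlap other annotated genes (Emc9, and Erlec1 with Gm12103).

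The ATPases of the 19S base, which unfold the substrate, were detected in 14 to 21 cells each. Psmc1 was in the most and Psmc3 in the fewest. In the hepatocyte-like group 75.0% of gene and cell combinations of the class were detected and in the cholangiocyte-like group 27.3%. Psmc2 stood at 186, 77.8, 0.971, 168, 146 and 5.48 CPM in the hepatocyte-like cells 1, 2, 3, 4, 38 and 39. It was detected in 1 of 4 blood cell marker cells, at 65.4 CPM, and in 6 of 22 cholangiocyte-like cells.

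The 11 non-ATPase genes of the 19S particle were detected in 11 to 25 cells each. Psmd1, the large scaffold subunit, was in the most, and Psmd13 was in 11 cells, as was Psmd3. Psmd14, the deubiquitinase of the lid, stood at 728, 403, 2123 and 13.4 CPM in the blood cell marker cells 29, 32, 33 and 36. Its mesothelial and fibroblast values were 0.0800 to 88.2 CPM, its hepatocyte-like values 0 to 61.7 CPM, and 3 cholangiocyte-like cells were above 100 CPM (2146, 1178 and 139 CPM in cells 23, 9 and 20). Psmd6, a lid subunit, was at 0.818 to 413 CPM in the hepatocyte-like cells (median 97.0) and listed at 0 in 19 of 22 cholangiocyte-like cells.

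The assembly chaperones were the least often detected. Psmd9 was in 16 cells, Psmd10, also called gankyrin, in 5 and Psmd5 in 2, cells 32 and 36, with 48.3 CPM in cell 32. Psmg1 was in 8 cells and Psmg2 in 4. Psmg1 reached 100 CPM in 5 of its cells, the highest being cell 24 at 2098 CPM, and Psmg2 in 1, cell 26 at 2086 CPM.

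Each marker group was then set against all other cells by the difference in mean log2(CPM + 1) per gene. Genes detected in at least 4 cells were used, 9646 in all, and 44 of the 45 proteasome genes passed, all but Psmd5. With no filter all 45 genes entered, and the medians were 1.33, -1.81, 0.66 and 1.62 in the hepatocyte-like, cholangiocyte-like, mesothelial and fibroblast, and blood cell groups. A gene was counted as higher or lower when the means differed by at least 1, which is 2-fold on that scale and understates the fold of low genes. No proteasome gene (0 of 44) separated any group fully from the other cells, which pool the remaining 3 groups, and of all genes 1.75%, 0%, 0.0933% and 0.145% did so in the same order.

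In the hepatocyte-like cells most proteasome genes had a higher mean log2(CPM + 1) than in the other cells. Their summed proteasome level in CPM did not share this direction, with the lowest median of the 4 groups, 3163 CPM. Their cell totals also had the lowest median, 700226 CPM. As a share of the total their median proteasome level was 0.489%, against 0.503% in cholangiocyte-like cells. The median difference was 1.43 over the 44 genes and -0.41 over all genes, 25 were higher (21% of all genes were) and 4 lower (27.5% of all genes were). The largest differences upward were those of Psmb3 (4.58), Psmd6 (4.36), Psme3 (3.65), Psmc2 (3.62) and Psmd8 (3.17), which belong to the core, the lid, the base and an activator. Those downward were Psmb8 (-2.80), Psme4 (-2.15), Psmb11 (-1.91) and Psma1 (-1.35), followed by Psmd10 (-0.77), which was listed at 0 in all 6 cells. Psma1 did not reach 100 CPM in any hepatocyte-like cell and did so in 11 of the other 33. Without cell 1 the median was 0.94 and 20 genes were higher. With a pseudocount of 0.1 or 10 in place of 1 it was 2.32 or 0.52, and 10 genes were higher with the latter. This group also had the lowest median reads per CPM and the lowest Rn45s shares, as given above, and their part in the difference was not tested.

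In the cholangiocyte-like cells the direction was opposite, but these 22 cells were also most of the 33 others in the hepatocyte-like comparison. Their median difference was -1.85 against -0.27 over all genes. Of the 44 genes 34 were lower (26.3% of all genes were) and 0 were higher (10.6% of all genes were). The mean log2(CPM + 1) over a cell's 45 proteasome genes had medians of 3.61 in hepatocyte-like and 1.82 in cholangiocyte-like cells. The medians were 3.51 in the mesothelial and fibroblast group and 4.59 in the blood cell group. Only 3 genes had a difference above 0, Psmd10 (0.80), Psmb11 (0.41) and Psmg2 (0.35). Psme2 (-4.96), Psma7 (-4.34), Psmb3 (-4.08), Psmd1 (-4.01) and Psmb5 (-3.41) were lowest. When the hepatocyte-like cells were left out of the comparison the median was -1.43 and 26 genes were lower, and with a pseudocount of 10 the median was -0.93 and 21 were lower, against a median of -2.94 with a pseudocount of 0.1. The ubiquitin gene Ubb did not share this direction. Its median was 7334 CPM in these cells, against 504 CPM in the hepatocyte-like cells.

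The 7 cells with mesothelial and fibroblast markers stood near the other cells in the middle of the distribution and far above them in a few genes. The median difference was 0.67 against 0.10 over all genes, 15 genes were higher (25.9% of all genes were) and 2 lower (13.7% of all genes were). Psme2 and Psmb8 led, each with a difference of 5.43, ahead of Psma7 (3.65), Psmd12, a lid subunit (3.11), and Psmb5 (2.41), and Psmb10 had a difference of 2.30. Psmb8 had an SD over cells of 1.34 in this group and 3.57 in the others, and Psme2 had 3.86 and 3.98. Psmb7 (-1.09) and Psmd11 (-1.005) were lower, followed by Psmd3 (-0.98), Psma3 (-0.90) and Psmc5 (-0.81). Without cell 10 the median was 0.17 and 8 genes were lower. General leukocyte markers, 3 of which were in the table, summed to 0 to 1.34 CPM in these cells and 8 macrophage markers to 0.0446 to 3.21 CPM, while 8 granulocyte markers summed to 0 to 34.0 CPM and 3 T or NK cell markers to 0 to 44.0 CPM. Their part in the levels of Psmb8 and Psme2 was not tested.

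The 4 cells with blood cell markers did not all share the same ones. At least 3 granulocyte markers reached 100 CPM in 3 of the 4 cells and at least 3 macrophage markers in 1. In this group the median difference was 1.66, against -0.04 over all genes. Of the 44 genes 30 were higher (30.3% of all genes were) and 0 lower (19% of all genes were). Psmd14 led with 6.04, followed by Psme4 (5.18) and 3 alpha ring genes, Psma6 (5.09), Psma5 (4.52) and Psma7 (4.42). Psma6 stood at 2809, 268, 126 and 350 CPM in cells 29, 32, 33 and 36, so both Psma6 and Psma7 were above 100 CPM in all 4 cells. Psma5 was uneven, at 1183, 709, 0.126 and 94.6 CPM in the same order. The least high were Psmd13 (-0.999), Psmd8 (-0.99), Psmd10 (-0.73), Psme1 (-0.66) and Psmc6 (-0.64), none of which was as low as -1. Without cell 33 the median was 2.55, and leaving out any 1 of the 4 cells put 2 or 3 genes at or below the threshold.

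**Figure D5:**
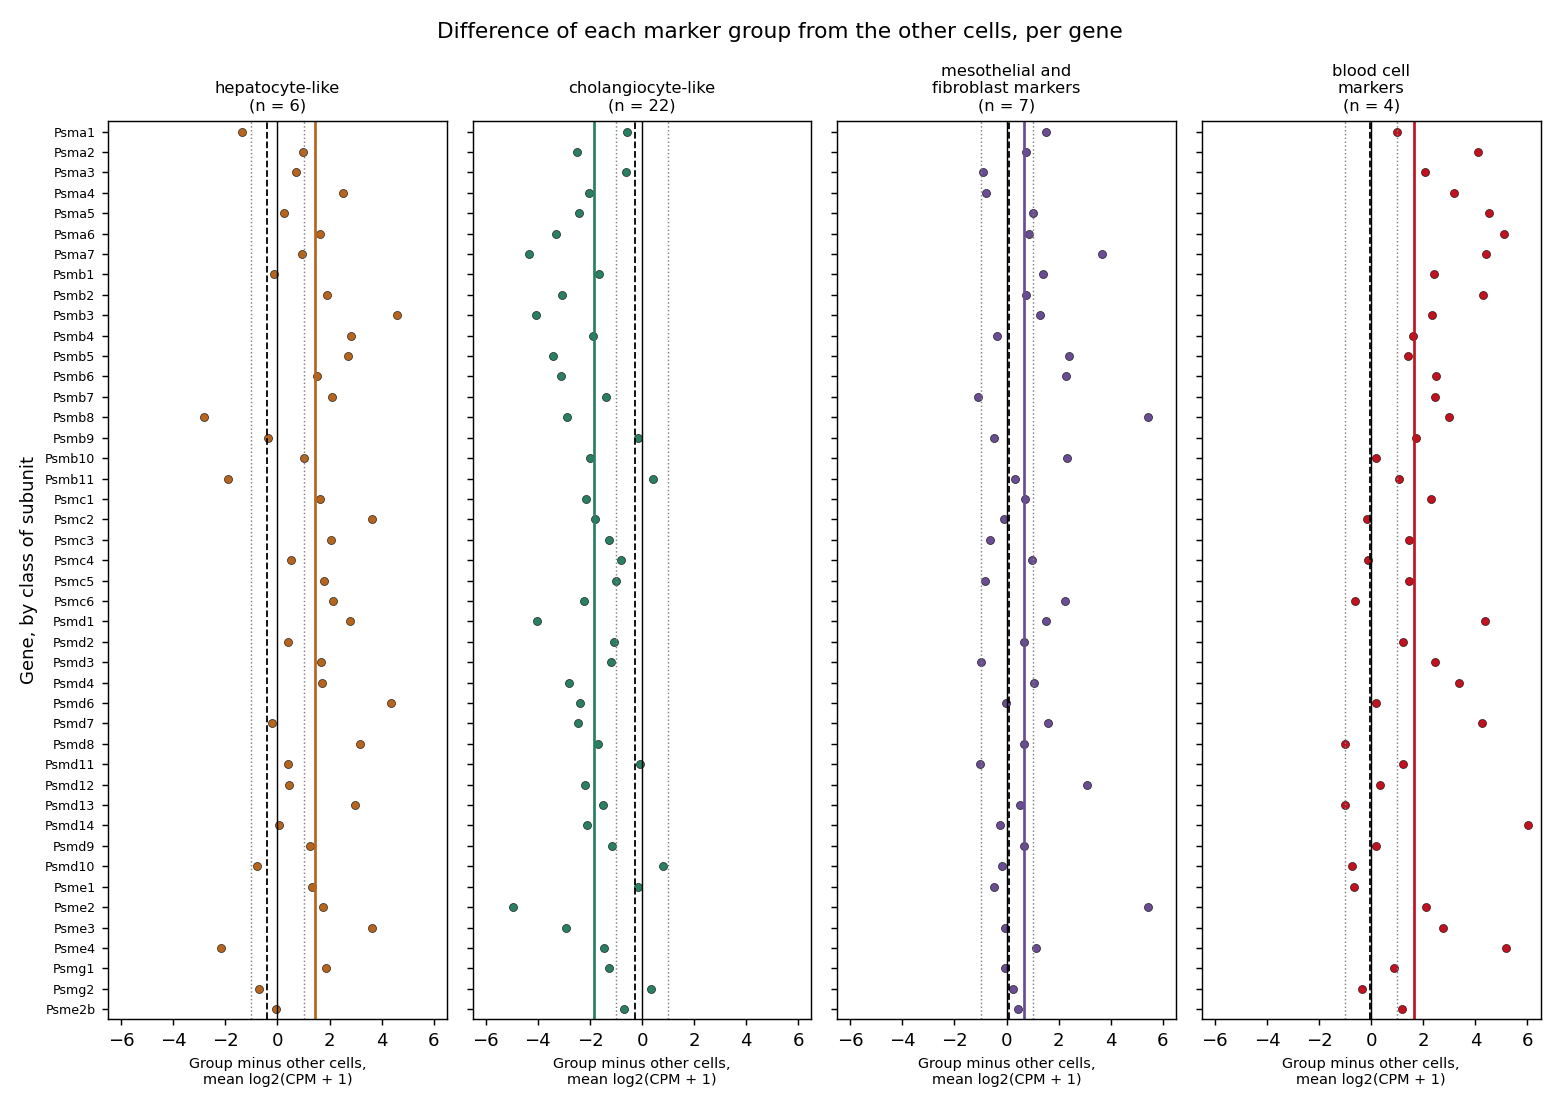
Difference in mean log2(CPM + 1) between each marker group and all other cells (horizontal axis) for the 44 proteasome genes that passed the filter (rows, by class); the coloured line is their median, the dashed line the median of all 9646 genes and the dotted lines mark -1 and 1. Points lie mostly left of 0 in the cholangiocyte-like panel and mostly right of it in the hepatocyte-like and blood cell panels, and Psmb8 and Psme2 stand farthest right in the mesothelial and fibroblast panel.

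Proteasome genes varied together only weakly from cell to cell. Over the 946 pairs of the 44 genes the median Spearman rho over 39 cells was 0.18 (5th to 95th percentile -0.12 to 0.45), and over all pairs of the 9646 genes it was 0.03. The share of pairs above 0.5 was 2.33% against 0.846%. The closest pairs were Psma6 with Psmd1 (0.68), Psma4 with Psma5 (0.63) and Psma5 with Psmb1 (0.61), and the lowest was Psmb11 with Psmd6 (-0.38). The genes of a cell share its library and depth. Of 1626 other genes detected in at least 20 cells, those nearest to the summed proteasome level included the cytoskeletal genes Actb (0.60) and Tmsb4x (0.59), the splicing factor gene Srsf2 (0.56) and Cdc42 (0.54). The rho of that level with the cell's total over all genes was 0.65. The part of the unequal totals in these values was not tested.

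Genes upstream and downstream of the proteasome were followed as lists, with the share of all genes called the same way beside each count. Ubb, which encodes a chain of ubiquitin units, was detected in all 39 cells, with a difference of -3.15 in the hepatocyte-like and 1.67 in the cholangiocyte-like cells. Rps27a, in which ubiquitin is fused to a ribosomal protein, was detected in 34 cells and had the opposite signs, 2.65 and -3.21. Of 8 enzymes that activate or carry ubiquitin, 3 were higher (21% of all genes were) and 1 lower (27.5%) in hepatocyte-like cells, and 0 were higher (10.6%) and 4 lower (26.3%) in cholangiocyte-like cells. In the mesothelial and fibroblast group 4 were higher (25.9%) and 1 lower (13.7%), as in the blood cell group (30.3% and 19%). Uba1, the main activating enzyme, was detected in 29 cells, Ube2d3 in 28 and Ube2l3 in 24, while Uba6 was in 5 and Ube2g1 in 6.

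Among 10 factors that act with the proteasome, 3 were higher (21% of all genes were) and 1 lower (27.5%) in hepatocyte-like cells, and 0 were higher (10.6%) and 4 lower (26.3%) in cholangiocyte-like cells. In the mesothelial and fibroblast group 4 were higher (25.9%) and 0 lower (13.7%), and in the blood cell group 5 were higher (30.3%) and 0 lower (19%). Pomp, the maturation factor of the core, was detected in all 6 hepatocyte-like cells (37.1 to 312 CPM, median 148) and in 6 of 22 cholangiocyte-like cells, with a difference of 4.94 in the hepatocyte-like cells. Shfm1, the small lid subunit whose symbol lies outside the pattern, was detected in 33 cells. It went the other way, with -2.02 in the hepatocyte-like cells. Ube3a was in 16 cells, Ube3c in 8 and Akirin2 in 4.

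Of 13 shuttle and adaptor proteins, 6 were higher (21% of all genes were) and 0 lower (27.5%) in hepatocyte-like cells, and 0 were higher (10.6%) and 5 lower (26.3%) in cholangiocyte-like cells. The mesothelial and fibroblast group had 5 higher (25.9%) and 3 lower (13.7%), and the blood cell group 4 higher (30.3%) and 2 lower (19%). Vcp, the segregase that extracts ubiquitin-tagged proteins, was in 26 cells, with a difference of -3.51 in the cholangiocyte-like cells. Sqstm1, an autophagy adaptor, was in 22 cells, among them all 6 hepatocyte-like cells (10.7 to 400 CPM, median 160). Rad23b was in 17, Ubqln4 in 5 and Faf1 in 4. Of 9 regulators of proteasome gene transcription, 1 was higher (21% of all genes were) and 3 lower (27.5%) in hepatocyte-like cells, and 2 were higher (10.6%) and 0 lower (26.3%) in cholangiocyte-like cells. The mesothelial and fibroblast group had 2 higher (25.9%) and 2 lower (13.7%), and the blood cell group 1 higher (30.3%) and 4 lower (19%). Nfe2l2 was in 23 cells, Nfe2l1 in 19 and Maff in 14, with Ngly1, the enzyme that processes Nfe2l1, in 6 and Bach1 in 4.

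Class I peptide loading and interferon response genes were the list in which the mesothelial and fibroblast cells stood out. Of 12 genes 10 were higher there and 0 lower, with a median difference of 2.04, against 25.9% and 13.7% of all genes. In hepatocyte-like cells 2 were higher (21% of all genes were) and 7 lower (27.5%), with a median of -1.16. In cholangiocyte-like cells 1 was higher (10.6%) and 4 lower (26.3%), with a median of -0.59, and in the blood cell group 4 were higher (30.3%) and 2 lower (19%), with a median of -0.01. H2-K1, a class I heavy chain, was detected in all 39 cells, and B2m, its light chain, and H2-D1 in 38. In the mesothelial and fibroblast cells H2-D1 was at 132 to 710 CPM (difference 2.04), H2-K1 at 252 to 2893 CPM (1.24) and B2m at 202 to 3417 CPM (1.37). Tapbpl was in 10 cells and Nlrc5, the class I transactivator, in 4, with differences of 2.84 and -0.05 in that group.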

How the data were processed

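The deposited file held log2 values of RefSeq transcripts in 39 cells, made by the authors with Bowtie 0.12.9, eXpress 1.5.1 and edgeR (no version given) on mm9, per the submitters' processing notes, which give no settings. All cells shared a floor of -2.58 on the log2 scale, which was taken as no reads. Values were raised from log2 and reduced by 0.167 (the linear floor), and the unit CPM is inferred. Transcripts of a symbol were summed. The fixed plan assumed counts or a normalised unit, and no count model was fitted. Marker groups came from Ward linkage on log2(CPM + 1) of the 91 markers in the table, of 131 listed, with 4 clusters by silhouette. The depth step counts low values within 2% of 1 read of a whole multiple, which held for a median of 44.0% of them. Reads carry no molecular identifiers. No cell was removed and no doublet caller was run.

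Named genes were the cutting subunits, the activators, the most and least often detected gene of each class, the 5 largest differences in each direction per group, and of each pathway list the 3 most and 2 least often detected genes. Other genes named were picked after their values were seen. The members and lists were chosen with earlier results of these data known. Ube2d2, Ddi2 and Tap1 were not analysed here. A few genes that these rules would name are not reported here. Transcript lengths came from GENCODE. The arithmetic of the difference step was checked on shuffled values with a known fold put on chosen genes, which says nothing about undetected genes. Python 3.11.15, pandas 2.3.3, scipy 1.17.1, scikit-learn 1.9.0 and Biopython 1.88 were used. Alternatives covered the thresholds, pseudocount, filter, scaling and linkage; leaving out single cells, the hepatocyte-like cells or cells 38 and 39 was chosen after seeing the data.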

Additional observations from a re-analysis of the deposited data

How the results depend on the processing

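Of 117 values recomputed under another setting (single cells left out aside), 93 stayed within the spread or within 1.5 times of the reported value, 24 moved further and 0 reversed. Only the median differences, the immunoproteasome differences and the correlation have a sign, so counts and summed levels could not reverse. The spread was the SD over cells, or over pairs for the correlation, and was wide for the immunoproteasome differences. The number of genes detected per cell was 30 for any value above 0 and 8 at 100 CPM. With a pseudocount of 0.1 the median difference was 2.32 in hepatocyte-like and -2.94 in cholangiocyte-like cells, with 1 gene higher in the latter, and 6 and 3 genes were lower in the mesothelial and fibroblast and the blood cell groups. With a pseudocount of 10 these medians were 0.52 and -0.93, 10 genes were higher in hepatocyte-like cells, 21 lower in cholangiocyte-like cells and 0 lower in the mesothelial and fibroblast group. Among genes detected in at least 20 cells, where 16 proteasome genes remain, 10 were higher and 2 lower in hepatocyte-like cells, 13 lower in cholangiocyte-like cells, 7 higher and 0 lower in the mesothelial and fibroblast group and 15 higher in the blood cell group. With every cell rescaled to the same total, 4 genes were lower in the mesothelial and fibroblast group and 2 in the blood cell group, and 2 again in the latter without Rn45s, Lars2 and Rorb. Average linkage kept the 6 hepatocyte-like cells. It gave the blood cell name to more than 1 of its 5 clusters, so that group was not run. Its cholangiocyte-like group had 14 cells and its mesothelial and fibroblast group 9, of which 5 were among the 7 reported (cells 35 and 37 left, 9, 11, 12 and 13 joined). It put 2 genes higher in cholangiocyte-like cells and 5 lower in the mesothelial and fibroblast group, whose median was 0.42. Without the hepatocyte-like cells 0 genes were lower in that group. Apart from the smaller set of genes, the cause was not tested.

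Leaving out each cell of a group in turn gave medians of 0.94 to 1.67 in hepatocyte-like cells (20 to 28 genes higher, 3 to 4 lower) and -2.004 to -1.73 in cholangiocyte-like cells (0 higher, 32 to 34 lower). The medians were 0.17 to 0.94 in the mesothelial and fibroblast group (11 to 22 higher, 1 to 8 lower) and 1.41 to 2.55 in the blood cell group (24 to 31 higher, 2 to 3 lower). The immunoproteasome differences and the correlation among members kept their sign under every alternative run. No paired analysis was possible because the labels give 1 group and number the cells only as names. At 1 CPM a gene rests on as few as 3.67 reads in the shallowest cell, so absence at this depth is not absence of expression.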
